A study of Rattus norvegicus with 27 samples.

Results

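The nuclear genes for the enzymes of oxidative phosphorylation were followed in cultured primary rat Schwann cells, the glia that wrap axons in peripheral nerve, at 3 stages. Members were the rows of the cell mRNA table whose gene names begin as those of complexes I to V do (Nduf followed by a, b, c, s or v and a digit, Sdha to Sdhd, Uqcr, Cox4 to Cox8 followed by a, b or c, and Atp5). The rule found 78 of 17315 rows, of which 35 belong to complex I, 4 to complex II, 8 to complex III, 14 to complex IV and 17 to complex V. Because it matches names, it also takes *Atp5s*, *Atp5sl* and *Cox7a2l*, which are related factors, *Cox6c-ps1*, a pseudogene, and *Ndufa10l1*, a paralogous copy. It counts *Ndufa4* with complex I by its name, although its protein is now placed in complex IV. Of the 78 members, 73 had enough counts to be tested. *Cox6a2*, *Cox6c-ps1*, *Cox8b*, *Cox8c* and *Ndufa4l2* did not.

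Each stage had 3 libraries, titled as biological replicates. The undifferentiated cells were grown without dibutyryl cyclic AMP (dbcAMP), a form of cyclic AMP that enters cells. To make differentiated cells, 1 mM dbcAMP was given for 72 h with 1% serum in the medium. The dedifferentiated cells received the same treatment, followed by 72 h without dbcAMP in a complete medium with 10% serum, forskolin, which raises cyclic AMP inside cells, and neuregulin. The cells were a commercial primary culture used at passages 3 to 5, and the labels do not say which medium the undifferentiated cells were in at harvest, so that stage and medium cannot be told apart. The 9 libraries held 10058732 to 16212282 estimated counts, which puts the level of 3 counts at 0.185 to 0.298 CPM (the count scaled to the library total). The labels do not say that the replicates came from separate animals, so the tests measure the spread between these libraries. CPM takes no account of transcript length, so levels are compared between stages and not between genes.

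Complexes I to IV pass electrons from NADH and succinate to oxygen, and complexes I, III and IV pump protons across the inner mitochondrial membrane as they do so. Complex V, the ATP synthase, lets the protons flow back and uses their energy to make ATP. Most subunits are encoded in the nucleus, translated in the cytosol and imported, and they assemble in the inner membrane with a small core of subunits encoded in mitochondrial DNA. Of 26 gene names searched for the subunits encoded in mitochondrial DNA, 0 were in the cell mRNA table, so these subunits were not analysed here.

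The culture was checked against its labelled cell type first. Of 8 Schwann cell marker names, 7 were in the table and were detected in every library. *Sox10*, a transcription factor of the Schwann cell lineage, was at 1252 to 1479.9 CPM in undifferentiated, 964 to 1110.4 CPM in differentiated and 1325 to 1539 CPM in dedifferentiated libraries. The 8 fibroblast markers summed to 15906 to 19838 CPM, 6103 to 8508 CPM and 10228 to 13191 CPM in the same order, most of it *Col1a1*, a collagen gene. *Lum* was at 0 in every library, and *Dcn*, *Pdgfra*, *Thy1* and *Fap* were all at or below 1.92 CPM. *Pdgfrb*, a growth factor receptor, was at 117 to 149 CPM, 538 to 806 CPM and 312 to 333 CPM, and *Col3a1*, another collagen gene, at 39.5 to 64.7 CPM, 88.9 to 94.9 CPM and 104 to 226 CPM, so that both were higher in differentiated than in undifferentiated cells while *Col1a1* and the sum were lower. The 6 macrophage and leukocyte markers summed to 0.403 to 2.29 CPM, 3.95 to 5.17 CPM and 2.11 to 3.90 CPM, with *Aif1* at 0 in every library. The 5 endothelial markers summed to 1.21 to 3.08 CPM, 6.78 to 9.11 CPM and 11.9 to 22.5 CPM, with *Cdh5* at 0, and the 5 muscle markers to at most 1.35 CPM. The part of these markers in the results was not tested.

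The summed level of the respiratory genes was higher in differentiated cells than in the other stages. Summed over all 78 members, the level was 5501, 5345 and 5360.2 CPM in the undifferentiated libraries, 6792, 6578 and 6584 CPM in the differentiated libraries and 5357, 5889 and 6057 CPM in the dedifferentiated libraries. Every differentiated library was above every library of the other stages. The members thus held 0.540%, 0.665% and 0.577% of all counts in the undifferentiated, differentiated and dedifferentiated stages. In bulk RNA, a change in the mix of cells and a change in the RNA of each cell cannot be told apart.

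Of the 73 tested members, 34 rose and 5 fell between undifferentiated and differentiated cells (edgeR quasi-likelihood test over all 10372 tested genes, Benjamini-Hochberg adjusted p under 0.05). Over all tested genes, 59.6% were called, 31.7% as rising and 27.9% as falling, against 46.6% and 6.85% of the members. The median log2 change was 0.24 over the members and 0.05 over all genes. The changes were small: the 34 that rose did so by 1.16-fold to 1.81-fold. After dbcAMP was withdrawn, 22 members fell and 6 rose from their differentiated level, with a median log2 change of -0.14 over the members and -0.01 over all genes. Over all genes, 46.4% were called in that comparison, 23.2% in each direction, against 30.1% and 8.22% of the members. Between dedifferentiated and undifferentiated cells, 5 members were higher and 1 was lower, with a median log2 change of 0.08 against 0.02 over all genes. Of all genes, 29.4% were called there, 16.1% as higher and 13.3% as lower, so the members' shares of 6.85% and 1.37% were below the background. The 3 comparisons share libraries in pairs and are not independent of each other.

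In 49 of the 73 members (67.1%) every differentiated library was above every undifferentiated library, against 38.9% of all tested genes, and in 7 (9.59%) every one was below, against 27.4%. After withdrawal, 31 members (42.5%) were below the differentiated libraries without overlap, against 30.2% of all genes, and 6 (8.22%) were above, against 28.3%. Dedifferentiated libraries were all above the undifferentiated ones in 21 members (28.8%), against 26.8%, and all below in 2 (2.74%), against 17.1%.

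**Figure D1:**
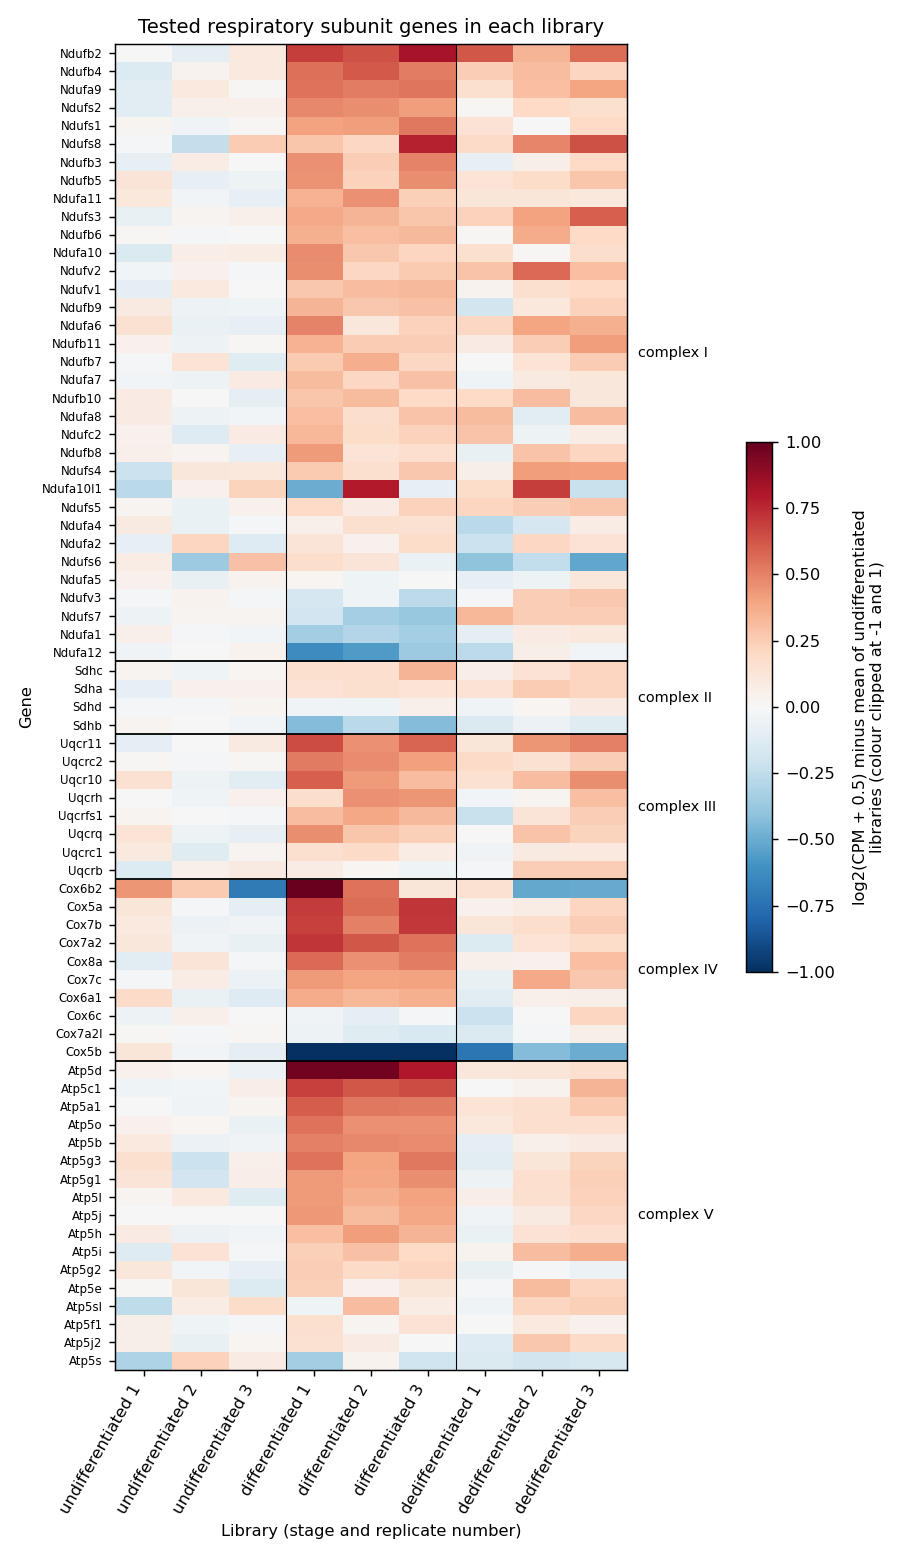
Each row is a tested member, grouped by respiratory complex, and each column is a library; colour gives log2(CPM + 0.5) minus the mean of the undifferentiated libraries, clipped at -1 and 1. Red fills most of the 3 differentiated columns and fades in the dedifferentiated columns, while *Cox5b*, at the foot of complex IV, is blue in the 6 differentiated and dedifferentiated libraries.

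The complexes differed in how far their summed levels moved. Complex V summed to 2132, 2002 and 2026 CPM in undifferentiated, 2849.6, 2763 and 2753 CPM in differentiated and 2030.5, 2208 and 2274 CPM in dedifferentiated libraries. Its mean in differentiated cells was 1.36 times that in undifferentiated cells. The ratio was 1.25 for complex III, 1.20 for complex I, 1.06 for complex IV and 1.02 for complex II. Over TMM-scaled totals the complex II means turned the other way, from 455 in undifferentiated to 445 in differentiated cells, and those of complex IV were 804 and 819. For complexes I, III and V, every differentiated library lay above every undifferentiated library, whereas for complexes II and IV the libraries of the 2 stages overlapped.

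**Figure D2:**
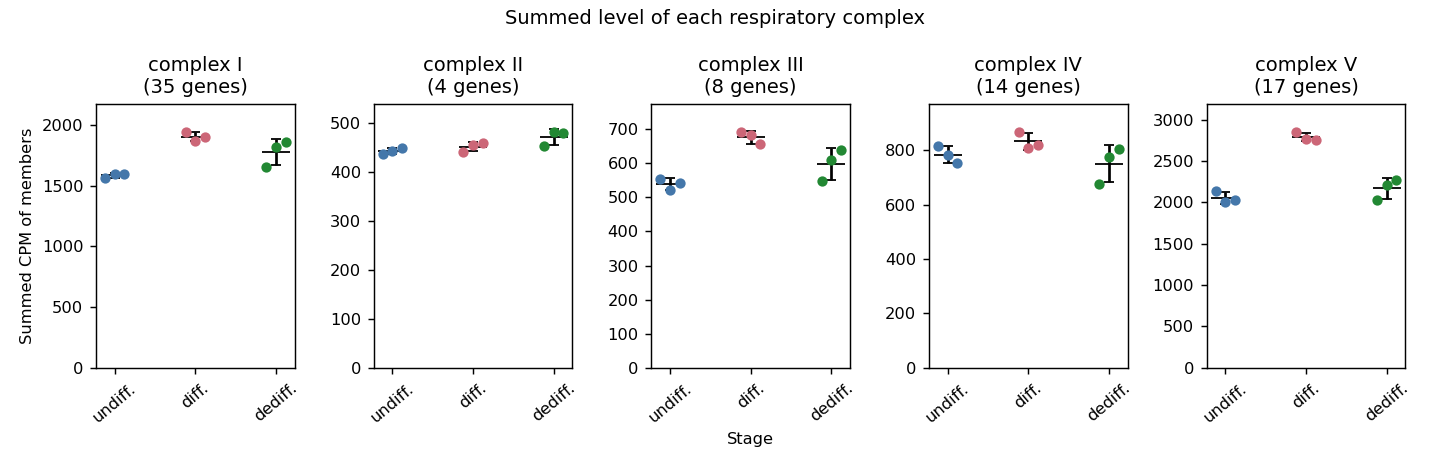
Points are libraries, with the summed CPM of the members of each complex on a linear axis from 0; the long bar is the mean of 3 libraries and the whiskers are ± 1 SD. Complex V stands at 2053 ± 69.5 CPM, 2788 ± 53.2 CPM and 2171 ± 126 CPM in the 3 stages in order, while complex II stays between 437 and 482 CPM.

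Of the 17 members of complex V, 10 rose and none fell with differentiation at an adjusted p under 0.05, and the median log2 change was 0.32. The shares of 58.8% and 0% stand against 31.7% and 27.9% of all genes. In the F1 part, which holds the catalytic sites and the central stalk, 4 of 5 subunit genes rose. *Atp5d*, the delta subunit of the stalk (now *Atp5f1d*), was at 76.9, 75.6 and 71.7 CPM in the undifferentiated libraries, 147, 146 and 130.3 CPM in the differentiated libraries and 81.0, 81.3 and 83.7 CPM in the dedifferentiated libraries. The differentiated libraries were all above the other 6. *Atp5d* rose 1.81-fold with differentiation (log2 change 0.86, SE 0.0821, adjusted p = 7.3e-06) and fell by 0.77 on the log2 scale after withdrawal (adjusted p = 3.4e-05, edgeR).

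*Atp5c1*, the gamma subunit that turns inside the head, was at 85.2, 86.0 and 91.7 CPM in the undifferentiated libraries, 141, 135 and 138 CPM in the differentiated libraries and 87.4, 89.8 and 111 CPM in the dedifferentiated libraries. It rose 1.51-fold (log2 change 0.59, SE 0.0910, adjusted p = 2.3e-04, edgeR), and its dedifferentiated libraries overlapped the undifferentiated ones. The alpha and beta subunits, which form the catalytic head, are described beyond the naming rule and were added after their values were seen. *Atp5a1* (alpha) was at 353 ± 7.98 CPM, 518 ± 17.8 CPM and 401 ± 18.2 CPM (SD, n = 3) in the 3 stages in order, and *Atp5b* (beta) at 689 ± 40.1 CPM, 965 ± 11.4 CPM and 695 ± 43.3 CPM. Both rose with differentiation, with log2 changes of 0.49 (adjusted p = 2.0e-04) and 0.42 (adjusted p = 0.00162) in the edgeR fit, and both fell after withdrawal.

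Outside F1, 3 of 4 peripheral stalk genes, 2 of 3 genes of the c ring that rotates in the membrane, and 1 of 3 other membrane subunit genes rose. These groups of complex V genes were assigned after the values were seen, and over all genes 31.7% rose. The c ring protein is encoded by 3 genes, *Atp5g1*, *Atp5g2* and *Atp5g3*, that give the same mature protein. Their log2 changes were 0.36 (adjusted p = 0.0148), 0.15 (adjusted p = 0.131) and 0.42 (adjusted p = 0.00979) in the edgeR fit with differentiation. Without undifferentiated replicate 2, *Atp5g1* and *Atp5g3* had adjusted p-values of 0.091 and 0.0613 and were no longer called. *Atp5s*, a related factor rather than a subunit, had a log2 change of -0.25 (adjusted p = 0.267), and its stages overlapped.

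After withdrawal, 11 of the 17 complex V members fell and none rose, and the median log2 change was -0.26. Falls made up 64.7% of these members and 23.2% of all genes, of which 23.2% rose. Against undifferentiated cells, 0 of the 17 members were called in dedifferentiated cells by edgeR, 0 by the DESeq2 Wald test, and 0 higher and 0 lower at an unadjusted edgeR p under 0.05. The summed level of complex V there was 1.06 times the undifferentiated mean, with overlapping libraries.

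Complex IV, cytochrome c oxidase, reduces oxygen at the end of the chain. Of its 10 tested members, 6 rose and 1 fell with differentiation (60% and 10%, against 31.7% and 27.9% of all genes). The median log2 change, 0.40, was higher than that of the other complexes. The gene that fell was *Cox5b*, which encodes a zinc-binding subunit on the matrix side. *Cox5b* was at 203, 183 and 176 CPM in the undifferentiated libraries, 89.6, 76.2 and 72.1 CPM in the differentiated libraries and 113, 138 and 133 CPM in the dedifferentiated libraries. The 3 stages did not overlap: differentiated cells were lowest, dedifferentiated cells intermediate and undifferentiated cells highest.

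*Cox5b* thus fell to 0.405 of its undifferentiated level (log2 change -1.30, SE 0.118, adjusted p = 4.8e-06), rose 1.63-fold after withdrawal (adjusted p = 7.4e-04) and remained at 0.659 of the undifferentiated level (adjusted p = 0.00314, edgeR). It was the member with the largest called change in either direction. *Cox5b* supplied 23.9% ± 0.872 (SD, n = 3) of all complex IV counts in undifferentiated cells, 9.51% ± 0.774 in differentiated cells and 17.0% ± 0.753 in dedifferentiated cells. Without *Cox5b*, the other 13 members of complex IV summed to 613, 598 and 577 CPM, 778, 734 and 748 CPM and 562, 635 and 672 CPM in the 3 stages, and every differentiated library was above every library of the other stages.

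After withdrawal 1 of the 10 tested complex IV members, *Cox5b*, rose and 5 fell, with a median log2 change of -0.35. These are 10% and 50%, against 23.2% of all genes in each direction. *Cox5a*, the matrix-side partner of *Cox5b* in the enzyme, moved the other way. *Cox5a* was at 44.9, 40.7 and 38.5 CPM in the undifferentiated libraries, 67.4, 61.1 and 67.9 CPM in the differentiated libraries and 42.5, 43.4 and 48.0 CPM in the dedifferentiated libraries. Differentiated libraries were above all others, and the other 2 stages overlapped. It rose 1.52-fold (log2 change 0.60, SE 0.0966, adjusted p = 3.2e-04) and fell by 0.54 on the log2 scale after withdrawal (adjusted p = 0.00110, edgeR).

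The small membrane subunits *Cox7a2* and *Cox7b* rose by similar amounts. *Cox7a2* was at 79.6 ± 5.66 CPM, 123 ± 7.50 CPM and 83.2 ± 9.54 CPM (SD, n = 3) in the 3 stages in order, with a log2 change of 0.57 (adjusted p = 8.8e-04) with differentiation in edgeR. *Cox7b* was at 32.4 ± 1.92 CPM, 50.5 ± 3.89 CPM and 36.8 ± 1.67 CPM, with a log2 change of 0.58 (adjusted p = 4.2e-04). *Cox8a*, another membrane subunit, rose 1.37-fold (adjusted p = 0.00156, edgeR). These 3 genes fell after withdrawal, with log2 changes of -0.55 (adjusted p = 0.00165), -0.44 (adjusted p = 0.00354) and -0.37 (adjusted p = 0.00809).

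Several complex IV subunits have isoforms that other tissues use, such as the heart and muscle forms. *Cox6a2*, the muscle form of *Cox6a1*, had 3, 4 and 14 counts in the undifferentiated libraries, 0 in each differentiated library and 4, 0 and 4 in the dedifferentiated libraries, too few to test. *Cox8b*, the muscle form of *Cox8a*, had 0 counts in all 9 libraries, which allows up to 0.185 to 0.298 CPM by counting error alone. *Cox6b2*, the testis form, was at 0.196 to 2.50 CPM, and no comparison was called. The widely expressed *Cox6a1* had a log2 change of 0.28 (adjusted p = 0.0342) with differentiation in edgeR, a call lost in 5 of the 6 fits with 1 library of those stages removed, with an adjusted p of up to 0.157. *Cox7a2l*, which encodes a factor that helps complexes III and IV join, had a log2 change of -0.17 (adjusted p = 0.0783).

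**Figure D3:**
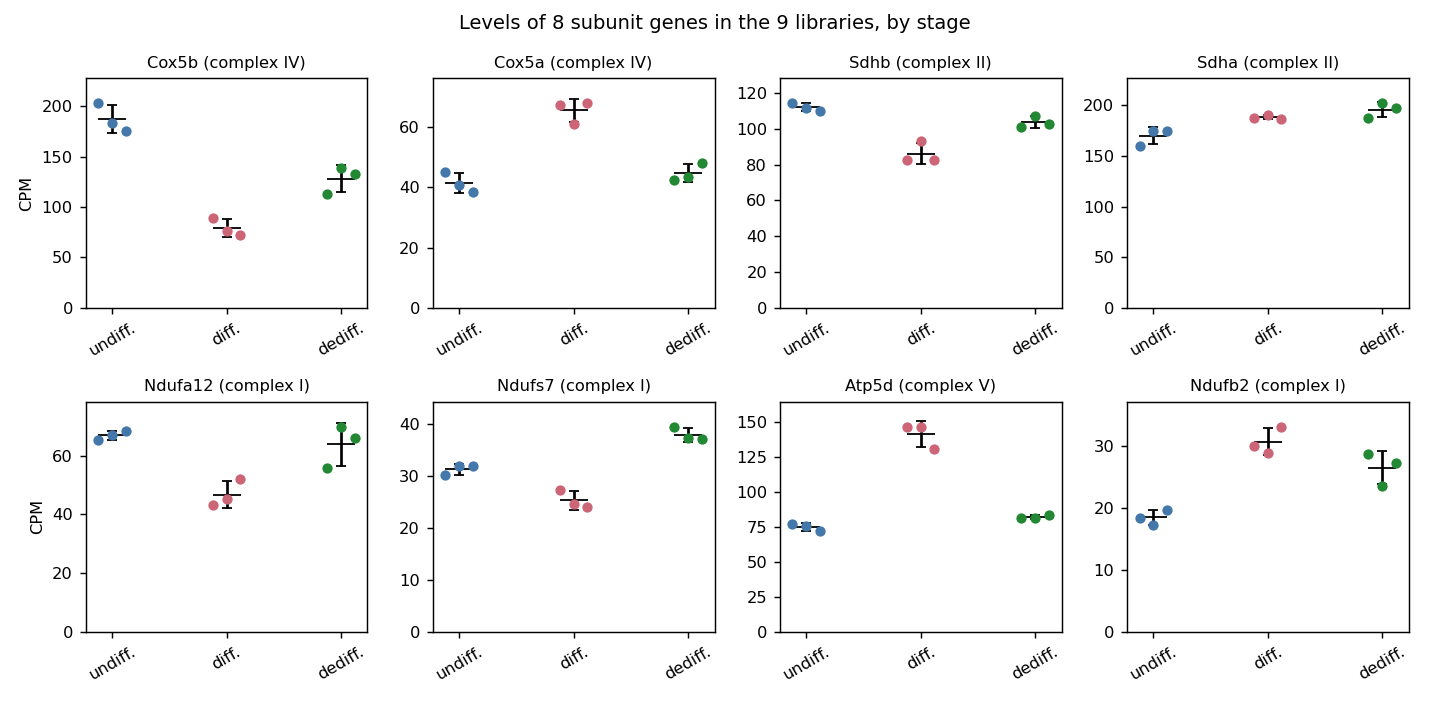
Each panel is a gene, with CPM on a linear axis from 0; points are libraries, the long bar is the mean of 3 and the whiskers are ± 1 SD. *Cox5b*, *Sdhb*, *Ndufa12* and *Ndufs7* are lowest in differentiated cells, *Cox5a* and *Atp5d* are highest there, and *Ndufb2* is high in both later stages.

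Complex II, succinate dehydrogenase, joins the tricarboxylic acid cycle to the chain and has no subunit encoded in mitochondrial DNA. Of its 4 genes, none rose and 1 fell with differentiation (0% and 25%, against 31.7% and 27.9% of all genes). *Sdha*, the flavoprotein that oxidizes succinate, was at 160.2, 175 and 175 CPM in the undifferentiated libraries, 188, 190.5 and 187 CPM in the differentiated libraries and 188, 202 and 197 CPM in the dedifferentiated libraries. The undifferentiated libraries were lowest, but the log2 change with differentiation, 0.09 (adjusted p = 0.290), was not called by edgeR. *Sdhb*, the iron-sulfur subunit that takes electrons from that flavoprotein, was at 114, 112 and 110.1 CPM in the undifferentiated libraries, 82.7, 93.0 and 82.6 CPM in the differentiated libraries and 101, 107 and 103 CPM in the dedifferentiated libraries. The differentiated libraries of *Sdhb* were below all others.

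*Sdhb* fell by 0.44 on the log2 scale with differentiation (SE 0.0772, adjusted p = 5.7e-04, edgeR). It rose by 0.28 after withdrawal (adjusted p = 0.0123), a call that was lost without differentiated replicate 3 (adjusted p = 0.0563). Its share of complex II counts was 25.3% ± 0.838, 19.0% ± 1.26 and 22.0% ± 0.525 (SD, n = 3) from the first stage to the last. The membrane anchors *Sdhc* and *Sdhd* had log2 changes of 0.17 (adjusted p = 0.0837) and -0.07 (adjusted p = 0.404) with differentiation.

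Complex III passes electrons from ubiquinol to cytochrome c. Of its 8 members, 5 rose and none fell with differentiation (62.5% and 0%, against 31.7% and 27.9% of all genes). The median log2 change was 0.29. *Uqcrc2*, a core protein on the matrix side, was at 112, 109.8 and 112 CPM in the undifferentiated libraries, 159.7, 155 and 147 CPM in the differentiated libraries and 127, 124 and 132 CPM in the dedifferentiated libraries. All 3 stages were separate, with dedifferentiated cells in between. It rose 1.33-fold with differentiation (log2 change 0.41, SE 0.0707, adjusted p = 5.2e-04) and fell by 0.26 after withdrawal (adjusted p = 0.0119, edgeR). *Uqcr11*, a small membrane subunit, was at 41.7, 44.4 and 47.2 CPM in the undifferentiated libraries, 69.9, 61.2 and 66.8 CPM in the differentiated libraries and 48.3, 60.5 and 63.3 CPM in the dedifferentiated libraries. It rose 1.42-fold (adjusted p = 0.00179), and its dedifferentiated libraries lay above the undifferentiated ones and overlapped the differentiated ones. *Uqcrh*, the acidic hinge subunit, had a log2 change of 0.31 (adjusted p = 0.0259) that was called in the full fit and lost in 4 of 6 fits without a library, with an adjusted p of up to 0.106. In complex III, *Uqcrc2* alone was called after withdrawal, so that 12.5% of the members fell, against 23.2% of all genes.

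Complex I oxidizes NADH and holds the most subunits. Of its 34 tested members, 13 rose and 3 fell with differentiation, with a median log2 change of 0.22. In the NADH-oxidizing module 2 of 8 rose and 1 fell, in the module that reduces ubiquinone 4 of 8 rose and 1 fell, and in the membrane arm 7 of 16 rose and 1 fell. These modules were assigned after the values were seen, and over all genes 31.7% rose and 27.9% fell. After withdrawal 4 complex I members rose and 5 fell (11.8% and 14.7%), below the 23.2% of all genes in each direction. The median log2 change of complex I was then -0.10. Of the 7 core subunits encoded in the nucleus, 4 rose and 1, *Ndufs7*, fell with differentiation.

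*Ndufb2*, an accessory subunit of the membrane arm, was at 18.5, 17.3 and 19.8 CPM in the undifferentiated libraries, 30.1, 28.9 and 33.2 CPM in the differentiated libraries and 28.7, 23.6 and 27.4 CPM in the dedifferentiated libraries. Both later stages lay above the undifferentiated libraries. It rose 1.59-fold with differentiation (log2 change 0.67, SE 0.112, adjusted p = 4.1e-04) and was still 1.39-fold higher than in undifferentiated cells after withdrawal (adjusted p = 0.00985, edgeR). *Ndufb4*, also of the membrane arm, was at 43.9 ± 3.64 CPM, 64.7 ± 2.35 CPM and 52.4 ± 1.75 CPM (SD, n = 3) in the 3 stages in order, with a log2 change of 0.50 (adjusted p = 2.7e-04) with differentiation. *Ndufa9*, which supports the ubiquinone site, and *Ndufs1*, the large iron-sulfur subunit, rose with log2 changes of 0.47 (adjusted p = 5.2e-04) and 0.39 (adjusted p = 0.00131).

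The 3 complex I genes that fell with differentiation were *Ndufa12*, *Ndufa1* and *Ndufs7*. *Ndufa12*, an accessory subunit of the matrix arm, was at 65.6, 67.1 and 68.6 CPM in the undifferentiated libraries, 43.2, 45.1 and 52.0 CPM in the differentiated libraries and 55.9, 70.0 and 66.0 CPM in the dedifferentiated libraries. The differentiated libraries were below all others, and those of the other stages overlapped. *Ndufa12* fell by 0.58 on the log2 scale with differentiation (adjusted p = 4.6e-04) and rose by 0.46 after withdrawal (adjusted p = 0.00319, edgeR). *Ndufs7*, which carries the last iron-sulfur cluster before ubiquinone, was at 30.1, 31.8 and 31.9 CPM in the undifferentiated libraries, 27.3, 24.5 and 23.9 CPM in the differentiated libraries and 39.4, 37.2 and 37.1 CPM in the dedifferentiated libraries.

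The stages of *Ndufs7* did not overlap, and dedifferentiated cells were highest. It fell by 0.37 with differentiation (adjusted p = 0.00665) and rose by 0.60 after withdrawal (adjusted p = 5.2e-04), while its difference from undifferentiated cells, 0.23, was not called (adjusted p = 0.0923, edgeR). *Ndufa1*, a small membrane arm subunit encoded on the X chromosome, was at 39.5 ± 1.22 CPM, 31.4 ± 0.608 CPM and 40.5 ± 3.06 CPM (SD, n = 3), with log2 changes of -0.39 (adjusted p = 0.00289) and 0.38 (adjusted p = 0.00554). *Ndufa10* and its copy *Ndufa10l1* had fractional counts in all 9 libraries, so their reads were divided by estimation and the separate values are uncertain.

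**Figure D4:**
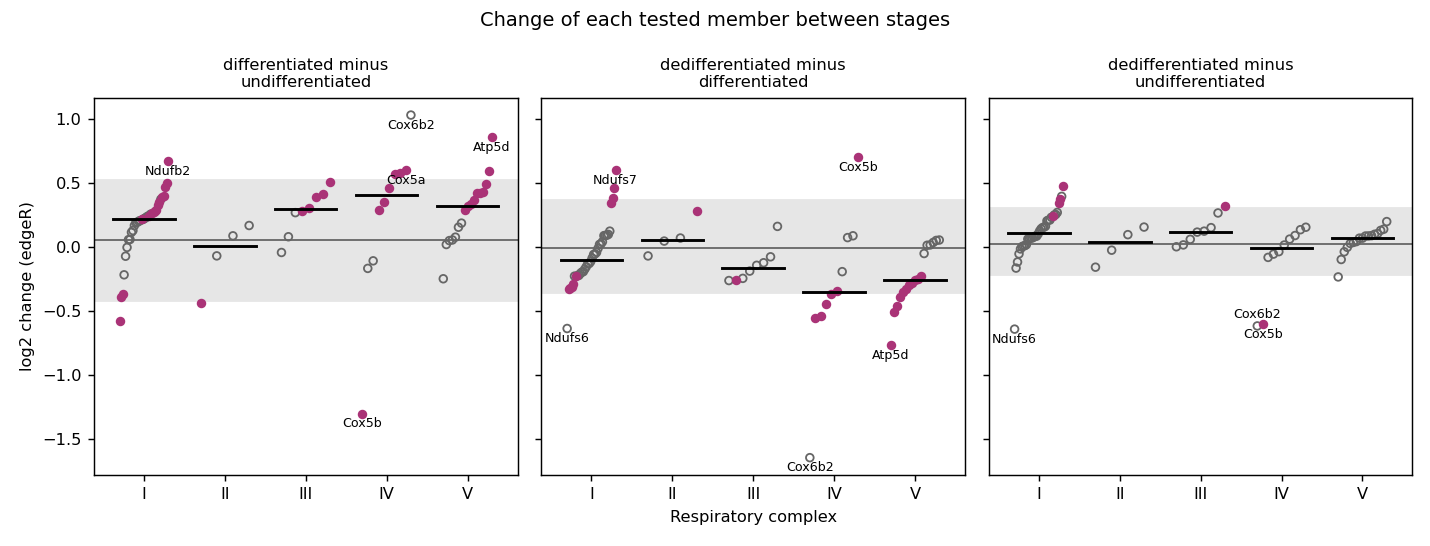
Points are the tested members of each complex, with the edgeR log2 change on the vertical axis in the 3 comparisons; filled points passed an adjusted p of 0.05, short black bars are medians, the grey line is the median of all tested genes and the grey band spans the middle 50% of them. In the first panel the medians of complexes I, III, IV and V are 0.22, 0.29, 0.40 and 0.32, above the median of all genes of 0.05, and *Cox5b* lies at -1.30.

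In dedifferentiated cells 6 members differed from undifferentiated cells. *Ndufb2*, *Ndufs3*, *Ndufv2*, *Uqcr11* and *Ndufa9* were higher, with log2 changes of 0.47 (adjusted p = 0.00985), 0.37 (adjusted p = 0.0172), 0.34 (adjusted p = 0.0326), 0.32 (adjusted p = 0.0444) and 0.24 (adjusted p = 0.0469) in edgeR, and *Cox5b* was lower. *Ndufs3*, *Ndufv2* and *Ndufa9* are parts of the matrix arm of complex I, and *Ndufv2* was named after its value was seen. With DESeq2 size factors in place of TMM, 2 members were higher and 1 was lower. Leaving out libraries changed this count: it was 3, 2 and 3 without undifferentiated replicates 1, 2 and 3, and 9, 2 and 3 without dedifferentiated replicates 1, 2 and 3. Over all genes, 2246 to 2876 were called in these 6 fits and 3045 in the full fit. *Ndufb2* and *Cox5b* were called in all 6 of these fits.

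Dedifferentiated replicate 1 stood below the other 2 libraries of its stage for the summed members, at 5357 CPM. Without it, 13 members fell and 6 rose after withdrawal, and the median log2 change of the members was -0.07 in place of -0.14. Over all genes the median was then -0.01, and 4513 were called, 51.7% of them higher, against 31.6% of called members. With differentiation, 20 members rose and 5 fell without undifferentiated replicate 3, and 21 rose and 5 fell without undifferentiated replicate 2. Over all genes, 5619 and 5620 were called in these fits, 53.1% and 50% of them higher, against 80% and 80.8% of called members. The shares of all genes tested that rose or fell were not computed for fits without a library. Across the 6 fits that left out a library of the stages compared, 18 of the 34 rises and the 5 falls were called each time.

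Replicates 1 and 2 were sequenced in project 9987 and replicate 3 in project 11026, per the labels. Within project 9987, with 2 libraries a stage, 15 members rose and 4 fell with differentiation, 3 rose and 7 fell after withdrawal, and *Cox5b* alone was called against undifferentiated cells (edgeR). Over all genes 4358, 2606 and 1283 were called in these 3 comparisons, against 6179, 4809 and 3045 over both projects. Of the calls within project 9987, 53.1%, 52.2% and 61.5% were higher. Among called members 78.9% were higher with differentiation and 30% after withdrawal. The share of all genes tested that rose or fell was not computed for this fit. In project 11026, with 1 library a stage and no test, 57 of 73 members were higher in the differentiated library, with a median difference of 0.28 on the log2(CPM + 0.5) scale against 0.05 over all genes. After withdrawal 28 of 73 were higher than in the differentiated library, with a median of -0.09 against -0.01. Against the undifferentiated library, 66 of 73 were higher in the dedifferentiated library, with a median of 0.19 against 0.03, where the median log2 change was 0.03 within project 9987 and 0.08 over both projects. How many of all genes were higher in each pair of project 11026 libraries was not counted.

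The promoters of 67 members were in the RefSeq table of rat assembly GRCr8, and 4 are shown because their genes moved in contrasting ways: *Cox5b* and *Sdhb* fell with differentiation, and *Atp5d* and *Uqcrc2* rose. The count table names no build, so the coordinates are RefSeq's. Each sequence is the 250 bases before the annotated start, 5′ to 3′ on the gene's strand, and capitals mark matches to CCGGAAG or its reverse complement CTTCCGG, the core bound by ETS factors such as GABP, a known regulator of respiratory genes. *Cox5b* is at chr9:46417587-46417836, plus strand, *Sdhb* at chr5:158547684-158547933, plus strand, *Atp5d* at chr7:10214351-10214600, minus strand, and *Uqcrc2* at chr1:184598990-184599239, plus strand.
Cox5b: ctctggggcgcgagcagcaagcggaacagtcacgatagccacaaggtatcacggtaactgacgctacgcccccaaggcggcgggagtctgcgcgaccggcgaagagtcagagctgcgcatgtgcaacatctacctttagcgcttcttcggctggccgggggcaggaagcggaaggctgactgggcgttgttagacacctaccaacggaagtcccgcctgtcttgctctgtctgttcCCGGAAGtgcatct
Sdhb: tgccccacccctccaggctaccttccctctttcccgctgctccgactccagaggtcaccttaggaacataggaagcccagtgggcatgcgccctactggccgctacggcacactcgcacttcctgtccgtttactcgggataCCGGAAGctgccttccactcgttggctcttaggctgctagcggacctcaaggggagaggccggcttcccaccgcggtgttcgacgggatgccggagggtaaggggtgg
Atp5d: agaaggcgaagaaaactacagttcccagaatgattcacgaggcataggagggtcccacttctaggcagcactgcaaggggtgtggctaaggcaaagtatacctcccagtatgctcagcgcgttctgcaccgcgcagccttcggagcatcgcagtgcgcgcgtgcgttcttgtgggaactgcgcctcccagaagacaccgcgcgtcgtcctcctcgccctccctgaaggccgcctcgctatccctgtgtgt
Uqcrc2: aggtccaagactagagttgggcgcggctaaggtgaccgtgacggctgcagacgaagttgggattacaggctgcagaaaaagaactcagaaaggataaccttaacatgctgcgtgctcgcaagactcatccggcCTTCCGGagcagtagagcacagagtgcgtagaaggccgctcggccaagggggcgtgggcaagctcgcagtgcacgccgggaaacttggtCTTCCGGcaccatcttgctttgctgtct

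The match begins 14 bases before the start in *Cox5b*, 108 bases before it in *Sdhb*, and 117 and 28 bases before it in *Uqcrc2*, and the *Atp5d* window has none. Over the full windows of 300 bases, searched on both strands, the ETS core was in 18 of 67 members' promoters (26.9%) and in 8.75% of all 33469 promoters. A fixed string of 11 letters for the YY1 motif was in 8 members (11.9%) against 0.675% of all promoters, and a palindrome of 10 letters for the NRF-1 motif in 4 (5.97%) against 0.852%. TGACGTCA, the cyclic AMP response element to which CREB binds, was in 4 members (5.97%) against 1.83%. Those 4 were *Ndufb2*, *Cox8a*, *Ndufa10* and *Sdhb*, whose log2 changes with differentiation were 0.67, 0.46, 0.26 and -0.44. In *Sdhb* the element begins 4 bases after the start, outside the stretch printed. A match is a description of the letters and not of binding, and the motifs' part in the changes was not tested.

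Other mitochondrial genes were read from lists chosen with earlier results of these data known. Of 8 tested subunits and carriers that the naming rule omits, 6 rose and none fell with differentiation (75% and 0%). Over all genes 31.7% rose and 27.9% fell, and the median log2 change of these 8 was 0.52. *Cycs*, cytochrome c, and *Cyc1*, the complex III subunit that reduces it, rose with log2 changes of 0.73 (adjusted p = 6.7e-05) and 0.62 (adjusted p = 3.3e-05) and fell after withdrawal by 0.82 and 0.66. *Cox4i1*, a regulatory complex IV subunit, had a log2 change of 0.17 (adjusted p = 0.100). *Atpif1*, the inhibitor of ATP synthase, was at 59.9 ± 1.24 CPM, 93.7 ± 1.83 CPM and 95.3 ± 16.5 CPM (SD, n = 3). *Atpif1* rose with differentiation (log2 change 0.58, SE 0.112, adjusted p = 0.00106) and was still higher than in undifferentiated cells after withdrawal (log2 change 0.62, adjusted p = 0.00214, edgeR).

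Of 37 tested assembly factors, 17 rose and 2 fell with differentiation (45.9% and 5.41%, against 31.7% and 27.9% of all genes). Their median log2 change was 0.35. *Cox17*, the copper chaperone of complex IV, rose from 10.5 ± 2.53 CPM to 34.7 ± 1.73 CPM and was at 18.4 ± 1.81 CPM after withdrawal, with a log2 change of 1.67 (adjusted p = 7.6e-06) with differentiation in edgeR. *Ttc19*, needed for complex III, rose by 1.38 and fell by 1.26 after withdrawal. *Cox20*, which helps to insert a mitochondrially encoded subunit of complex IV, fell by 1.07 with differentiation (adjusted p = 5.5e-04) and rose by 1.24 after withdrawal (adjusted p = 3.5e-04).

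Import and cristae genes numbered 18 higher (56.2%) and 2 lower (6.25%) of 32 tested with differentiation, with a median log2 change of 0.40. Mitochondrial ribosome genes numbered 34 higher (50%) and 2 lower (2.94%) of 68, with a median of 0.34. Over all genes 31.7% were higher and 27.9% lower. *Slc25a5*, an ADP/ATP carrier that exchanges the product of complex V for ADP, rose from 137 ± 8.12 CPM to 475 ± 15.1 CPM (log2 change 1.73, adjusted p = 4.2e-08) and was at 192 ± 1.15 CPM after withdrawal. *Timm8a1*, an import chaperone, rose by 1.92 (adjusted p = 2.0e-06), and *Mrps35*, of the small mitochondrial ribosomal subunit, by 1.36 (adjusted p = 8.2e-07, edgeR).

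Of 25 genes of the tricarboxylic acid cycle and pyruvate entry, 10 rose and 4 fell with differentiation, with a median log2 change of 0.17. Their shares were 40% and 16%, against 31.7% and 27.9% of all genes. *Mpc1*, part of the mitochondrial pyruvate carrier, rose by 0.96 (adjusted p = 1.1e-04) and stayed 0.94 above undifferentiated cells after withdrawal (adjusted p = 4.3e-04). *Pdk2*, a kinase that shuts pyruvate dehydrogenase down, fell by 1.23 with differentiation (adjusted p = 4.4e-07) and rose by 1.01 after withdrawal (adjusted p = 4.7e-06, edgeR). *Idh3a*, a subunit of isocitrate dehydrogenase, rose by 0.79.

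Of 13 tested regulators of mitochondrial gene expression, 4 rose (30.8%, against 31.7% of all genes) and 1 fell with differentiation. *Nrf1*, *Gabpa*, *Esrra* and *Tfam*, well-known activators of respiratory or mitochondrial genes, had log2 changes of -0.22 (adjusted p = 0.174), -0.02 (adjusted p = 0.855), -0.19 (adjusted p = 0.385) and 0.03 (adjusted p = 0.845) in edgeR. *Ppargc1b*, a coactivator of the same genes, rose by 3.34 (adjusted p = 7.7e-04) from a low level of 0.247 ± 0.241 CPM to 2.58 ± 0.645 CPM, and *Ppargc1a* had at most 14 counts in any library and was not tested. After withdrawal none of the 13 rose and 3 fell (23.1%, against 23.2% of all genes). *Gabpa* fell by 0.27 (adjusted p = 0.0225) and *Gabpb1*, another of these regulators, by 0.57 (adjusted p = 0.0130). Against undifferentiated cells, *Gabpa* was lower in dedifferentiated cells (log2 change -0.29, adjusted p = 0.0255, edgeR).

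After withdrawal, 23.2% of all genes rose and 23.2% fell. None rose and 5 fell of the subunits and carriers outside the naming rule (0% and 62.5%). Of the assembly factors, 2 rose and 11 fell (5.41% and 29.7%). Import and cristae genes had 2 rises and 17 falls (6.25% and 53.1%). Mitochondrial ribosome genes had 1 rise and 17 falls (1.47% and 25%), and cycle and pyruvate genes 3 and 7 (12% and 28%). The falls of these last 2 lists were near the share of all genes. Against undifferentiated cells, 8 assembly factors, 7 mitochondrial ribosome genes and 5 import and cristae genes were higher in dedifferentiated cells. These are 21.6%, 10.3% and 15.6% of those tested, against 16.1% of all genes. None of these 3 lists had a gene called lower by edgeR, against 13.3% of all genes. Of the subunits and carriers, 1 was higher (12.5%) and none lower. Cycle and pyruvate genes had 3 higher and 1 lower (12% and 4%), and regulators 4 higher and 1 lower (30.8% and 7.69%). The last 2 comparisons share the dedifferentiated libraries.

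**Figure D5:**
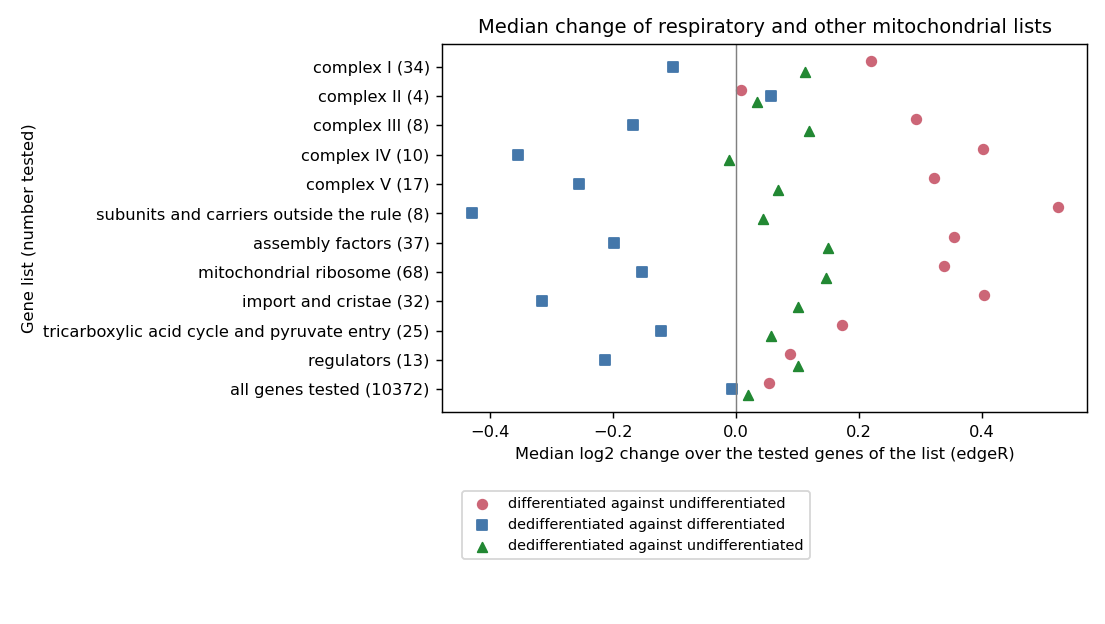
Points are the median edgeR log2 change over the tested genes of each list, with the number tested in parentheses; circles are differentiated against undifferentiated cells, squares dedifferentiated against differentiated, and triangles dedifferentiated against undifferentiated. The medians of complexes I, III, IV and V and of the other lists except regulators lie between 0.17 and 0.52 in the first comparison, against 0.01 for complex II and 0.05 over all genes tested.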

How the data were processed

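Cell mRNA was sequenced from 9 libraries, 3 at each of 3 stages, with directional libraries from 10 ng of total RNA per the labels' protocols. The values are estimated counts per gene deposited by the authors. Per the submitters' processing notes, the tools of the series were FastQC, Trim Galore, cutadapt, STAR, HISAT2, SAMtools, Picard, bedtools, Salmon, DESeq2 1.26.0 and MultiQC, with no role stated for each. The genome build and annotation are not given in the sources used here. Fractional entries made up 1.15% of the table, and counts were rounded to whole numbers for the tests. Columns were matched to samples by library code and stage. The tables of RNA from extracellular vesicles were not used here.

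Genes were filtered with filterByExpr (minimum count 10), scaled by TMM on totals over all rows, and fitted with edgeR 4.0.16 (limma 3.58.1, R 4.3.3) by the quasi-likelihood test over all 9 libraries without covariates. P-values were adjusted by Benjamini-Hochberg over the 10372 tested genes, and a gene was called at an adjusted p under 0.05. Fold and log2 changes come from this fit, and CPM from the rounded counts over column totals. The SE of a log2 change is its size over the square root of F.

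The members and the gene lists were chosen with earlier results of these data known. Named members were, per comparison and complex, up to 2 with the largest called rise and 2 with the largest called fall, the 4 succinate dehydrogenase genes, isoform groups, up to 3 each way that kept their direction in both comparisons against undifferentiated cells, and the extremes of the other lists with 6 regulators. On simulated counts of 10372 genes, changes between undifferentiated and differentiated libraries were planted in a small part of the genes. The fit called 86.4% of the planted 2-fold and 11.7% of the planted 1.3-fold changes. In the data 59.6% of genes were called in that comparison, so the setting differs and these rates may not hold for the members. Promoters came from the RefSeq table of GRCr8, in which 17 members stand under newer symbols (such as *Atp5f1d* for *Atp5d*). Alternatives were the replicate block, the sequencing project, DESeq2 1.42.0 size factors and Wald test, other scalings and filters, a larger change, and each library left out in turn. Those of project 9987 alone and of subunits alone were added after the data were seen. Some genes of the lists are not reported here.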

Additional observations from a re-analysis of the deposited data

How the results depend on the processing

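No named gene with a call reversed its direction under the alternatives run. The difference of the complex II sums between undifferentiated and differentiated cells did. Of 3774 alternative values for the named genes, 3517 kept their direction and their side of the threshold, 218 lost a call and 39 gained one. The number of members called with differentiation was 39 in all, 19 within project 9987, 1 (*Cox5b*) when a log2 change above 1 was also required, and 25 to 40 with a library left out. After withdrawal it was 28 in all, 10 within project 9987, 0 with a log2 change above 1 also required (28 called by edgeR without that requirement), and 19 to 28 with a library left out. Between dedifferentiated and undifferentiated cells it was 6 in all, 3 with DESeq2 size factors, 1 within project 9987, 0 with a log2 change above 1 also required, and 2 to 9 with a library left out. Over all genes, 6179, 4809 and 3045 were called in the full fit and 4358, 2606 and 1283 within project 9987. The cause of the shifts in these member counts was not tested. The fits within project 9987 and those without a library held fewer libraries as well as other ones. The requirement of size removes smaller changes by its definition. The 69 tested members that are subunits held all 34 rises and 5 falls with differentiation. This is a count from the same fit and not a further test, since no related factor or copy was called.

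Summed CPM by complex moved with the denominator. Over totals without the 10 most abundant genes, the means for undifferentiated, differentiated and dedifferentiated cells were 1741, 2094 and 1969 for complex I, 487, 499 and 524 for complex II, 593, 745 and 664 for complex III, 862, 917 and 833 for complex IV, and 2258, 3072 and 2409 for complex V. Over TMM-scaled totals, the undifferentiated and differentiated means were 1624 and 1869 for complex I, 455 and 445 for complex II, 553 and 665 for complex III, 804 and 819 for complex IV, and 2108 and 2742 for complex V, so that complex II changed direction.

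Deviations from the stage means correlated by 0.0279 to 0.305 (mean 0.176) over the 9 pairs of same-numbered libraries and by -0.23 to 0.10 over the other pairs. Not every library correlated best with its own number, and the titles do not say that a number marks a shared culture, but replicate 3 of each stage shares a sequencing project. With the replicate number as a block, 39, 27 and 5 members were called in the 3 comparisons, of which 37, 26 and 4 were also called without it. With the sequencing project as a covariate, 34 members rose and 5 fell, 6 rose and 20 fell, and 4 were higher and 1 lower. On simulated counts 11.7% of 1.3-fold changes were called over all 10372 genes between undifferentiated and differentiated libraries, a rate that was not split by level. Few genes were changed in that simulation, unlike in the data, so the rate may not hold for the members.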
